A study of Homo sapiens with 6 samples.

Results

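ZBTB10, the Sp transcription factors SP1, SP3 and SP4, vascular endothelial growth factor A (VEGFA) and its receptors FLT1 and KDR were followed in RH36 cells that had received the precursor of miR-27a. RH36 is a human embryonal rhabdomyosarcoma (ERMS) line without the PAX3/FOXO1 translocation. The members were all probes that the array files name for these 7 genes, 17 of 41000 probes and 7 of 30484 gene names. No probe carried the older name VEGF (0 probes). A probe entered the test when its spot was found on all or all but 1 of the 6 arrays, which held for 14 of the 17 probes and for 36469 of all probes.

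The design was 3 pre-control arrays against 3 pre-miR-27a arrays. The pre-control cells were transfected with a negative control precursor, the pre-miR-27a cells with pre-miR-27a, and both groups were the same line. The level of miR-27a itself was not analysed here. Each array was labelled as a separate biological replicate, numbered 1 to 3 in either group. The labels give 10 nM of precursor for both groups and 48 hours for the pre-miR-27a arrays. They give no time for the pre-control arrays, so whether the groups were harvested at the same time is not stated. The methods of the study give 50 nM and 24 hours for RH36 cells, and which applies was not settled here. The comparison asks what forced miR-27a does to the transcripts of this axis. The transfection is transient in a single line, so no other ERMS line is represented.

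MicroRNAs pair through their seed with sites in messenger RNAs and lower the stability or translation of those messengers. ZBTB10 is a zinc-finger protein of the BTB family that is known as a repressor at GC-rich promoter boxes, the sites through which Sp factors activate transcription, and in carcinoma cells miR-27a is known to target it. SP1, SP3 and SP4 share a zinc-finger domain that binds GC boxes, and the promoters of VEGFA and its receptors are among those they are known to use.

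The mature strand of the transfected microRNA is shown with that of its paralogue miR-27b because both read the same targets through the seed. Capitals mark the seed, bases 2 to 8, and the sequences are those of RefSeq (GRCh38.p14). The miR-27a strand lies at chr19:13836447-13836467 on the minus strand and the miR-27b strand at chr9:95085505-95085525 on the plus strand. The seeds are identical and the 21 bases differ at 1 position outside the seed.
hsa-miR-27a-3p: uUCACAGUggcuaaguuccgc
hsa-miR-27b-3p: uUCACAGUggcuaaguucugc

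Promoter stretches of SP1, SP4, FLT1 and KDR are shown because the GC box, the site that Sp factors bind, links the factors with the receptors. Each stretch is the 100 bases before an annotated start in RefSeq (GRCh38.p14), written 5′ to 3′ on the strand of the gene, and capitals mark each GC box, GGGCGG on either strand. They lie at chr12:53380076-53380175 on the plus strand (SP1), chr7:21427983-21428082 on the plus strand (SP4), chr13:28495129-28495228 on the minus strand (FLT1) and chr4:55125596-55125695 on the minus strand (KDR).
SP1: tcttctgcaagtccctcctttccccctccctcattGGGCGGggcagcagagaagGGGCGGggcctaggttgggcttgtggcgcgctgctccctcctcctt
SP4: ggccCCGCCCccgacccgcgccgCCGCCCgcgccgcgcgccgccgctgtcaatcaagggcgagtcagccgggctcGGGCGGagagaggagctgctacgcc
FLT1: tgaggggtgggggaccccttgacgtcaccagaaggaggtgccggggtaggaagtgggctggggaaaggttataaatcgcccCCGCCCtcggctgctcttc
KDR: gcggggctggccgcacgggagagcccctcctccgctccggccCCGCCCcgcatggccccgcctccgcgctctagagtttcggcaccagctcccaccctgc

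Over the full 250 bases before the start, SP4 held 4 GC boxes, FLT1 held 3 and KDR held 2. The pair of SP1 starts in the table held 4 and 8, and the 3 SP3 starts held 2, 2 and 1. Among 35116 windows of this length, 42.6% held at least 1 GC box, 24.3% at least 2, 13.9% at least 3, 7.63% at least 4 and 0.584% at least 8. Windows with as many boxes as KDR or FLT1 were thus common. These matches are a description of letters in the windows, and no binding was measured in the series.

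Between 69.9% and 73.9% of the spots were well above background on the pre-control arrays, and between 74.1% and 78.0% on the others. Spots flagged as not found ran the other way, 1559 to 1750 on the pre-control and 3487 to 4153 on the pre-miR-27a arrays of 43376 spots, so the filter on found spots set more values to missing on the pre-miR-27a arrays. The pre-control arrays occupied slide 1 and those with pre-miR-27a slide 2, so the slide and the precursor cannot be told apart. The median local background was 74.5 to 76 on the first slide and 52.5 to 53 on the second. Of the added control transcripts, 8 could be read on every array. Placed on the quantile-normalized scale of the other spots, each of the 8 was higher on slide 2, by 0.045 to 0.42 on the log2 scale with a median of 0.28. The part of the slide in the values below was not tested. RH36 expressed its lineage genes: the 9 tested myogenic markers of 10 (MYF5 had too few found spots) were well above background on all 6 arrays. Each value below is a quantile-normalized log2 signal, and each difference is pre-miR-27a minus pre-control with its standard error from limma.

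Of the 14 tested probes of the axis, 1 had an adjusted p under 0.05, a ZBTB10 probe that was higher after pre-miR-27a, against 7.83% of all tested probes and 3.95% called in the higher direction. None was called lower (0 of 14, against 3.88% of all probes), and an unadjusted p under 0.05 was reached by 5 of the 14 probes and by 24.8% of all. The groups of arrays did not overlap for 5 of the 14 probes, 4 higher and 1 lower, against 32.5% of all probes (14.8% higher and 17.8% lower). Both counts of 5 include FLT1 A_24_P246125, whose signal was well above background on no array. Differences were above 0 for 11 probes and below 0 for 3, against 16914 above and 19555 below of all 36469 probes. The median over the 14 probes was 0.20, against −0.022 over all probes and 0.28 for the added control transcripts on slide 2. The 11 include this FLT1 probe and the 3 include KDR A_23_P58419, which was also well above background on no array. The probes belong to 7 genes and those of the same gene share transcripts, so they are not independent.

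ZBTB10 was represented by 3 probes of the same RefSeq transcript, NM_023929, on chromosome 8, and they did not move together. The brightest, A_23_P385114, read 9.45, 9.36 and 9.33 in pre-control replicates 1, 2 and 3 and 9.50, 9.52 and 9.26 in pre-miR-27a replicates 1, 2 and 3. The ranges overlapped, with the lowest value of all in a pre-miR-27a array. The means were 9.38 ± 0.063 and 9.43 ± 0.15 (SD, n = 3), a difference of 0.046 ± 0.10 (SE, adjusted p = 0.831 by limma) with a 95% interval from −0.21 to 0.30. This interval covers the spread between arrays only. It does not cover the slide, which cannot be told apart from the precursor. The added control transcripts were higher on slide 2 by 0.045 to 0.42, so the interval sets no limit on the effect of the precursor.

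The second ZBTB10 probe, A_24_P64071, rose. It read 6.62, 6.51 and 6.47 in the pre-control arrays and 7.64, 7.88 and 7.31 in the pre-miR-27a arrays. Every pre-miR-27a array stood above every pre-control array, by more than the spread inside either group. The means were 6.53 ± 0.083 and 7.61 ± 0.28 (SD, n = 3), a difference of 1.08 ± 0.16 (SE) or 2.11-fold, with a 95% interval from 0.68 to 1.47 and an adjusted p of 0.0234. Within the replicate numbers the differences were 1.01, 1.37 and 0.84, and a fit that compares arrays within each replicate number (the replicate block) gave an adjusted p of 0.0348. The RNA came from whole cultures, so a change in the share of expressing cells and a change in RNA per cell cannot be told apart.

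Before normalization between arrays, the intensities of A_24_P64071 were 111, 83.9 and 100.1 in the pre-control arrays and 196, 227 and 149 in the pre-miR-27a arrays, well above background on all 6. The local background around the same spots was 65, 70 and 70 on slide 1 and 54, 54 and 51.5 on slide 2. The processed intensity was thus higher and the local background lower on slide 2, and the part of the background was not tested. With any of the 6 arrays left out, the difference stayed between 0.94 and 1.22 and the adjusted p was 0.0543 to 0.0909, while the probes called over the whole array fell from 2856 to between 0 and 1276.

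The A_24_P64071 probe covers 328 bases of the genome, more than its own length, so it crosses a junction between exons, and it ends 1127 bases before the brightest probe. The remaining probe, A_23_P385115, lies 69 bases from the brightest probe. It read 5.21, 5.56 and 4.84 in the pre-control arrays and 5.69 in pre-miR-27a replicate 1, and its spot was not found in the other two pre-miR-27a arrays, so the found-spot filter removed it, although the spot was well above background on all 6 arrays by the scanner's other flag. Without that filter its difference was 0.32 ± 0.32 (SE, adjusted p = 0.603).

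Because both tested ZBTB10 probes sit on the same array, a factor that multiplies all probes of an array alike cancels in their ratio. An added background or an effect that depends on brightness does not cancel. The mean pre-control intensities of A_23_P385114 and A_24_P64071 were 687 and 98.4. With the normexp background correction the differences of these probes were −0.030 and 0.74, and the part of the background was not tested. The log2 ratio of A_23_P385114 to A_24_P64071 was 2.83, 2.86 and 2.86 in the pre-control arrays and 1.86, 1.64 and 1.95 in the pre-miR-27a arrays. The ratio was lower in every pre-miR-27a array, by a mean of 1.03. The exact two-sided permutation p was 0.1, the smallest that 3 arrays against 3 allow, and 0.2 after adjustment over the 8 probe pairs compared. The ZBTB10 result therefore differs with the probe, and the cause was not tested.

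**Figure D1:**
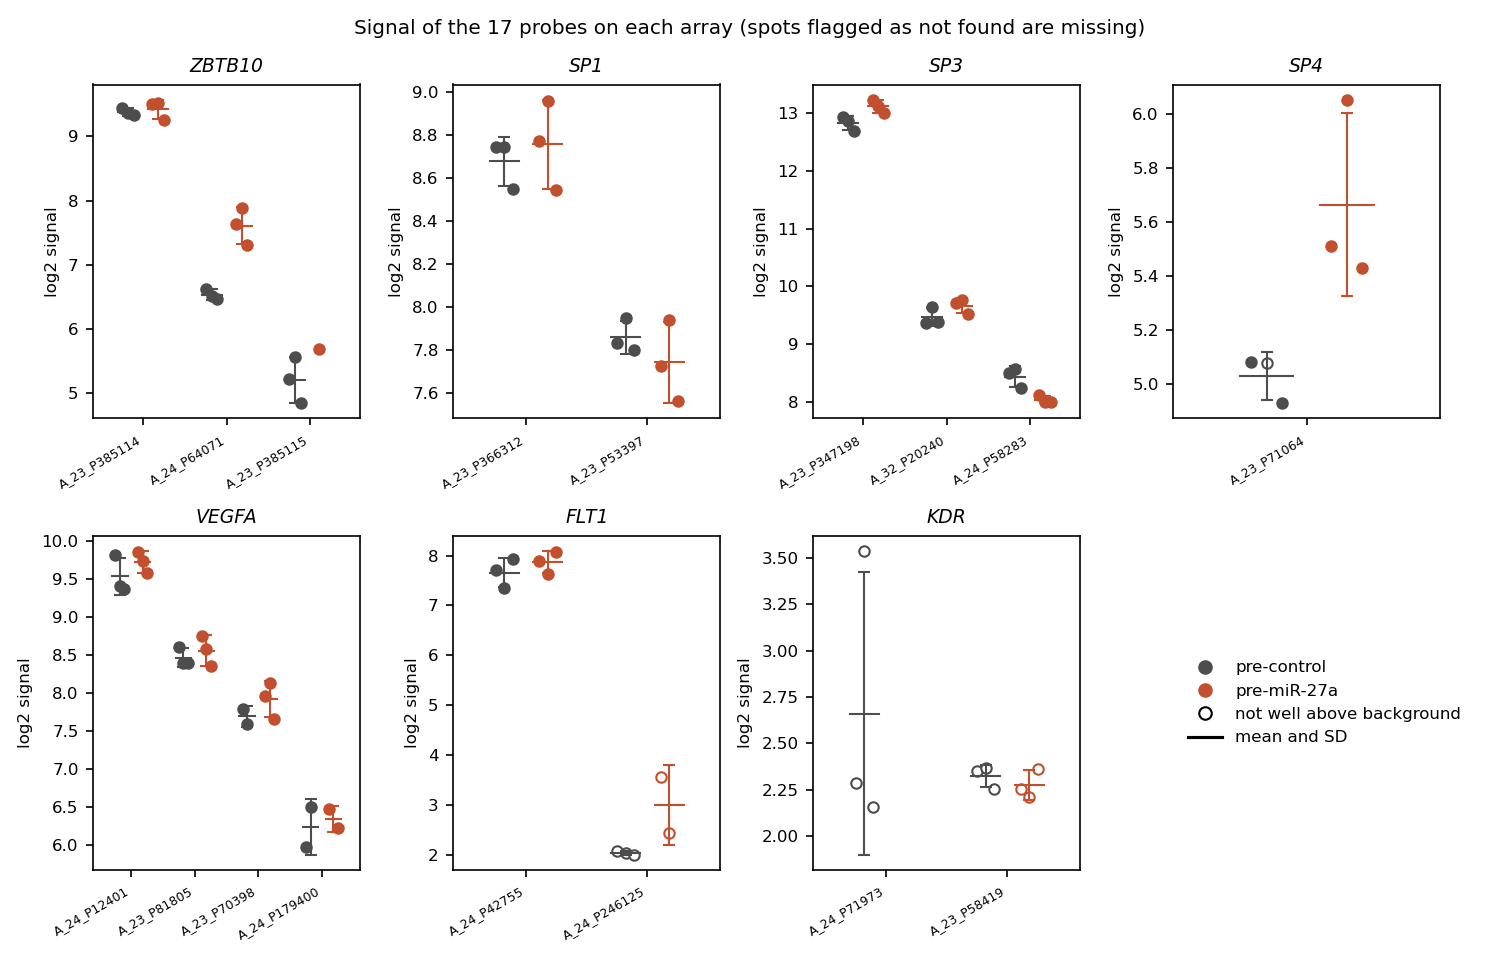
Log2 signal (vertical axes, a separate scale in each panel) of the 17 probes of the 7 genes, with 1 point per array, pre-control in grey and pre-miR-27a in orange, bars for the mean and SD, and open points for signals not well above background. Only the middle ZBTB10 probe passed the test, and the SP4 probe, SP3 A_23_P347198 and A_24_P58283, this ZBTB10 probe and FLT1 A_24_P246125, which is above background on no array, show groups that do not overlap among the tested probes.

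SP1, the founding and broadly expressed member of the Sp family, showed no call with either probe. A_23_P366312, which is printed in 10 spots per array, read 8.75, 8.75 and 8.55 in the pre-control arrays and 8.77, 8.96 and 8.54 in the pre-miR-27a arrays. The ranges overlapped, and the difference of 0.078 ± 0.13 (SE, adjusted p = 0.769) had a 95% interval from −0.25 to 0.41. The SD of the 10 spots within an array was 0.043 to 0.073, so the spread between arrays was larger than that of the spots.

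The other SP1 probe, A_23_P53397, lies 1198 bases away, at chr12:52091499-52091558 (hg18, the build of the array files) against chr12:52092756-52092815 for the first. It read 7.83, 7.95 and 7.80 in the pre-control arrays and 7.73, 7.94 and 7.56 in the pre-miR-27a arrays. These ranges overlapped too, and the difference was −0.12 ± 0.12 (SE, adjusted p = 0.605, 95% interval from −0.41 to 0.18). The ratio of the first to the second probe was higher in every pre-miR-27a array, 1.05, 1.02 and 0.98 against 0.91, 0.80 and 0.75 (exact permutation p = 0.1, the smallest possible, and 0.2 adjusted). The difference in the ratio was 0.20, and neither probe alone passed the test.

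SP3, which can activate or repress at the sites that SP1 uses, also had probes that disagreed. A_23_P347198, at chr2:174481537-174481596 on the minus strand, read 12.93, 12.87 and 12.69 in the pre-control arrays and 13.23, 13.13 and 13.00 in the pre-miR-27a arrays. All pre-miR-27a arrays were above all pre-control arrays. The difference was 0.29 ± 0.11 (SE, adjusted p = 0.171, 95% interval from 0.024 to 0.55), or 1.22-fold. Within the replicate numbers it was 0.30, 0.27 and 0.31, and in the fit blocked on the replicate number the probe passed the threshold (adjusted p = 0.0487), one of 2 member probes to do so among 14, against 14.9% of all probes under that block. Both were higher, the direction of 7.24% of all probes under the block, and none was lower (0, against 7.62%).

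A_24_P58283 went the other way. This SP3 probe spans 581 bases, chr2:174536808-174537388, and so crosses an exon junction, 55212 bases from the first probe and nearer the 5′ end of the gene. It read 8.49, 8.57 and 8.24 in the pre-control arrays and 8.11, 7.998 and 7.999 in the pre-miR-27a arrays. No value overlapped, and the difference of −0.40 ± 0.11 (SE), 1.32-fold lower, had an adjusted p of 0.0938 and a 95% interval from −0.68 to −0.12. With the block the adjusted p was 0.0675, so the probe passed in neither fit.

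The remaining SP3 probe, A_32_P20240, at chr2:174479648-174479707, read 9.37, 9.64 and 9.38 in the pre-control arrays and 9.71, 9.76 and 9.52 in the pre-miR-27a arrays. Its groups overlapped, with a difference of 0.20 ± 0.12 (SE, adjusted p = 0.357). The log2 ratio of A_23_P347198 to A_24_P58283 was 4.44, 4.29 and 4.45 in the pre-control arrays and 5.12, 5.14 and 5.00 in the pre-miR-27a arrays, 0.69 higher. That of A_32_P20240 to A_24_P58283 was 0.60 higher, and for both the groups did not overlap (exact permutation p = 0.1, the smallest possible, and 0.2 adjusted). Between the first probe and A_32_P20240 the ratio differed by 0.086 with overlapping groups (exact permutation p = 0.5). The files assign A_24_P58283 and A_23_P347198 to transcript NM_003111, A_23_P347198 also to NM_001017371, and A_32_P20240 to BX648857.

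**Figure D2:**
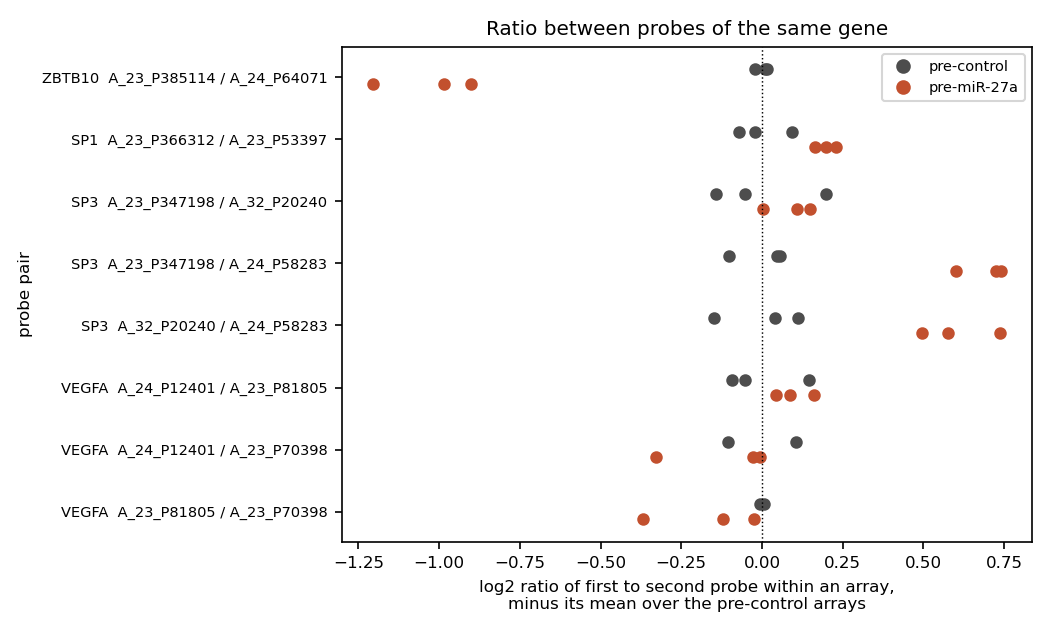
Log2 ratio between 2 probes of the same gene within each array (horizontal axis, after subtracting the mean of the pre-control arrays), for the 8 probe pairs, with 1 point per array and 5 arrays for the pairs with VEGFA A_23_P70398. The ZBTB10 pair moved by −1.03 and the SP3 pairs with A_24_P58283 by 0.69 and 0.60. The pre-control points centre on 0 by construction, and only their spread is to be read.

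SP4, the member of the family best known from neurons and from cancer lines, had 1 probe, A_23_P71064, at chr7:21488128-21488187. It read 5.08, 5.08 and 4.93 in the pre-control arrays and 5.51, 6.06 and 5.43 in the pre-miR-27a arrays. Every pre-miR-27a array was above every pre-control array, and replicate 2 stood furthest out. The means were 5.03 ± 0.088 and 5.67 ± 0.34 (SD, n = 3), and the difference of 0.64 ± 0.18 (SE) had a 95% interval from 0.18 to 1.09 and an adjusted p of 0.0991.

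The SP4 signal was close to the limit of the arrays. The intensities were 38.6, 31.7 and 36.9 in the pre-control arrays and 44.1, 61.0 and 39.5 in the pre-miR-27a arrays, and the spot was not well above background in pre-control replicate 2. The local background was 84, 68 and 81.5 around the pre-control spots and 55.5, 54 and 53 around the others, and its part in the difference was not tested. With the normexp background correction the difference was 0.40 and passed the threshold (adjusted p = 0.0485), and with the replicate block it did not (0.0654).

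VEGFA, the main angiogenic ligand, was called by no probe. A_24_P12401, the brightest, at chr6:43861489-43861548, read 9.81, 9.41 and 9.37 in the pre-control arrays and 9.86, 9.73 and 9.58 in the pre-miR-27a arrays. The groups overlapped because pre-control replicate 1 was within the pre-miR-27a range, and the difference was 0.19 ± 0.15 (SE, adjusted p = 0.507, 95% interval from −0.19 to 0.57). A_23_P81805, printed in 10 spots at chr6:43860503-43860562, read 8.60, 8.39 and 8.39 against 8.74, 8.57 and 8.35. Its groups overlapped as well, with a difference of 0.092 ± 0.13 (SE, adjusted p = 0.725), which was −0.0031 without pre-miR-27a replicate 1.

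A_23_P70398 covers 412 bases across an exon junction at chr6:43854201-43854612, nearer the 5′ end of VEGFA. It read 7.79 and 7.59 in pre-control replicates 1 and 2, where replicate 3 had no found spot, and 7.96, 8.14 and 7.66 in the pre-miR-27a arrays. The difference over these 5 arrays was 0.23 ± 0.17 (SE, adjusted p = 0.495), with overlapping groups. The remaining probe, A_24_P179400, had no found spot in pre-control replicate 3 and pre-miR-27a replicate 2 and was removed. Without the found-spot filter its difference was 0.26 ± 0.18 (SE, adjusted p = 0.44). Its found spots read 5.98 and 6.50 in pre-control and 6.47 and 6.23 in pre-miR-27a arrays. For the 3 VEGFA pairs the within-array ratios moved by 0.098, −0.12 and −0.17, with exact permutation p of 0.3, 0.6 and 0.2. The last, of A_23_P81805 to A_23_P70398 over 5 arrays, was lower in every pre-miR-27a array (exact permutation p = 0.32 after adjustment over the 8 pairs), and the other two overlapped.

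FLT1, a receptor tyrosine kinase that binds VEGFA and the placental growth factor, was measured by A_24_P42755 at chr13:27869129-27869188 on the minus strand. It read 7.71, 7.34 and 7.93 in the pre-control arrays and 7.89, 7.64 and 8.08 in the pre-miR-27a arrays. The groups overlapped, while each pre-miR-27a array was above the pre-control array of its own number, by 0.19, 0.29 and 0.15. The difference of 0.21 ± 0.19 (SE) had an adjusted p of 0.561, or 0.0992 with the replicate block, and a 95% interval from −0.26 to 0.68. It was 0.051 without pre-control replicate 2.

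The other FLT1 probe, A_24_P246125 at chr13:27774288-27774347, was well above background on no array (0 of 6). Its intensities were 6.28, 6.28 and 5.19 in the pre-control and 11.2, 3.98 and 7.22 in the pre-miR-27a arrays, and its fitted difference of 0.96 (adjusted p = 0.185) gives no fold. KDR, the receptor through which VEGFA chiefly drives endothelial growth, gave no usable level. A_23_P58419, which spans 5031 bases at chr4:55643555-55648585, was well above background on no array, with intensities of 7.55, 7.27 and 5.95 in the pre-control and 3.31, 2.78 and 4.39 in the pre-miR-27a arrays. A_24_P71973, at chr4:55640154-55640213, was well above background only in pre-miR-27a replicate 2, at an intensity of 14.5, and was flagged as not found on all pre-miR-27a arrays. Without the filter its fitted difference was 0.74 ± 0.50 (SE, adjusted p = 0.434), which gives no fold. KDR could therefore not be compared at the depth of these arrays.

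**Figure D3:**
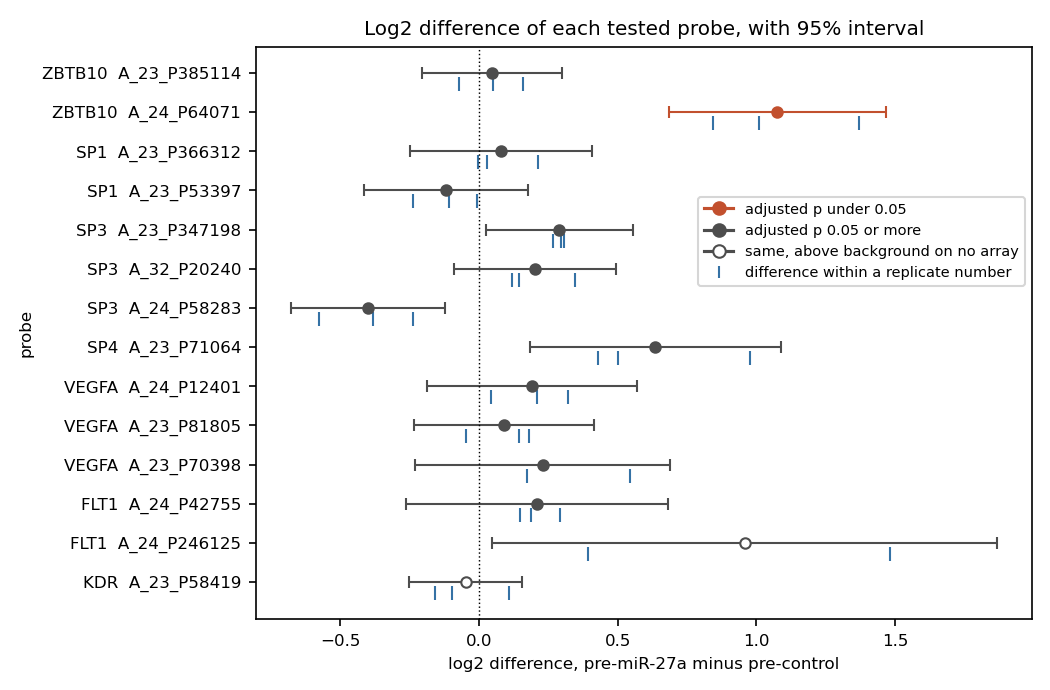
Log2 difference (pre-miR-27a minus pre-control, horizontal axis) of the 14 tested probes with 95% intervals, where short blue marks are the differences within a replicate number. ZBTB10 A_24_P64071 at 1.08 is the only probe past the threshold. Among the others, the interval of SP3 A_24_P58283 lies below 0. Those of SP3 A_23_P347198, SP4 A_23_P71064 and FLT1 A_24_P246125 lie above 0. The open points (FLT1 A_24_P246125, KDR A_23_P58419) were above background on no array.

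The genes around the axis were read by the brightest probe of each gene, 16601 genes in all, of which 6.64% were called, 2.61% higher and 4.03% lower, with a median difference of −0.039. Over all these genes, 7209 differences were above 0 and 9392 below. With the replicate block 13.5% of all genes were called. Of the 23 other Sp and KLF genes, relatives with the same zinc-finger type, 20 were tested. None was called higher and 2 were called lower, KLF14 and KLF16, with a list median of −0.018. KLF14 read 9.83, 9.92 and 9.91 in the pre-control and 9.08, 9.05 and 9.08 in the pre-miR-27a arrays, a difference of −0.81 ± 0.071 (SE, adjusted p = 0.0176). KLF16 read 15.77, 15.69 and 15.41 against 14.93, 15.01 and 14.91, a difference of −0.68 ± 0.12 (SE, adjusted p = 0.0307). Neither gene showed overlap between the groups, but the other KLF16 probe gave 0.15 (adjusted p = 0.456), so KLF16 too differed with the probe. With the replicate block KLF1 and KLF13 were also called higher and SP5 lower (adjusted p = 0.0459, 0.0357 and 0.0334), where KLF1 was above background in a single pre-miR-27a array. These and the other genes named only for the block were named after their values had been seen.

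Of the 40 other ZBTB genes, 37 were tested, 1 was called higher, none lower, and the list median was 0.014. The called gene was ZBTB43, which read 8.60, 8.36 and 8.64 in the pre-control and 9.29, 9.22 and 9.22 in the pre-miR-27a arrays, without overlap. Its difference was 0.71 ± 0.10 (SE, adjusted p = 0.0221), and its other probe gave 0.71 (adjusted p = 0.0181). Both tested probes of ZBTB43 thus passed. The lists count each gene by its brightest probe, and 25 further probes of 20 of these ZBTB genes were tested. Of these, 3 were called higher and none lower, against 3.95% and 3.88% of all tested probes. Beside that of ZBTB43 they belonged to ZBTB38 and ZBTB40, both zinc-finger proteins of the same family, named after their values had been seen. ZBTB38 A_24_P221323 read 5.52 and 5.74 in pre-control replicates 2 and 3, with no found spot in replicate 1, and 7.21, 6.69 and 6.70 in the pre-miR-27a arrays. Its difference was 1.24 ± 0.21 (SE, adjusted p = 0.0386), whereas the brightest ZBTB38 probe gave −0.066 (adjusted p = 0.91). ZBTB40 A_23_P160136 read 4.94, 4.38 and 5.07 against 6.00, 6.22 and 5.63, a difference of 1.16 ± 0.24 (SE, adjusted p = 0.0455), and the brightest ZBTB40 probe gave 0.051 (adjusted p = 0.741). As for ZBTB10, a further probe was higher in these 2 genes while the brightest showed no call. Both called probes were dim, and ZBTB40 A_23_P160136 was well above background in only 2 pre-control arrays. The remaining probes, ZBTB40 A_24_P940188 and ZBTB38 A_23_P212025, gave 0.44 and 0.39 without a call (adjusted p = 0.301 and 0.45). Over all the lists, 77 further probes of 56 genes were tested, of which 4 were called higher and none lower (0). The shares over all tested probes were again 3.95% and 3.88%. The block, under which 13.5% of all genes passed, added ZBTB26 in the higher and ZBTB22 in the lower direction (adjusted p = 0.0478 and 0.0379).

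None of 14 genes whose promoters are known to use Sp sites was called, with 9 above 0, 5 below and a median of 0.035. BIRC5, which encodes the apoptosis inhibitor survivin, read 15.41, 15.63 and 15.25 in the pre-control and 15.64, 15.76 and 15.34 in the pre-miR-27a arrays. The groups overlapped, with a difference of 0.15 ± 0.15 (SE, adjusted p = 0.61). CCND1, the G1 cyclin D1, was called higher with the replicate block, under which 13.5% of all genes passed. It differed by 0.62 ± 0.28 (SE), with an adjusted p of 0.239 without and 0.0374 with the block. Its further probes A_24_P124550 and A_24_P193011 gave 0.69 and −0.21 (adjusted p = 0.227 and 0.535). No CCND1 probe was called without the block, and a difference between these probes was not tested.

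The 7 other VEGF ligands, receptors and co-receptors held no call in either fit. The differences were below 0 for 6 of them and above 0 for 1, with a median of −0.21. VEGFC, which was among those below 0, was well above background on no array. Of 18 HIF factors and hypoxia-induced genes, which control or accompany VEGFA induction, 1 was called lower and none higher, with a median of −0.10. It was HIF1AN, the asparaginyl hydroxylase that restrains HIF activity, at 9.27, 9.38 and 9.34 in the pre-control and 8.66, 8.78 and 8.66 in the pre-miR-27a arrays. The groups did not overlap, and the difference was −0.63 ± 0.078 (SE, adjusted p = 0.019). HIF1A, the oxygen-regulated subunit, differed by −0.30 and passed when the replicate number was a block (adjusted p = 0.0492) and not otherwise (0.114). With any of the 6 arrays left out, 0 to 2 genes of all these lists were called in place of 4.

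FLT1 and KDR are best known from endothelial cells, so endothelial markers were read beside them. None of the 10 was called. PECAM1 and TIE1 were above background on no array, and 6 markers were well above it on all 6 arrays. Their level summed over the list on the linear scale, not log2, was 769 to 1124 in the pre-control and 724 to 947 in the pre-miR-27a arrays. The same sum over the myogenic markers was 152900 to 281000 and 142100 to 277100. The 9 tested myogenic markers held no call by their brightest probes. A further probe of CHRNA1, a muscle acetylcholine receptor subunit, was called higher (A_24_P393458, 0.95 ± 0.13, SE, adjusted p = 0.0216), whereas its brightest probe gave −0.15 (adjusted p = 0.456). With the block, under which 13.5% of all genes passed, 1 was higher, MYH8, and 3 were lower, CDH15, MYOD1 and MYOG. The difference of MYOG was −0.95 (adjusted p = 0.14 without and 0.0334 with the block). The part of the myogenic genes in the values of the axis was not tested.

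**Figure D4:**
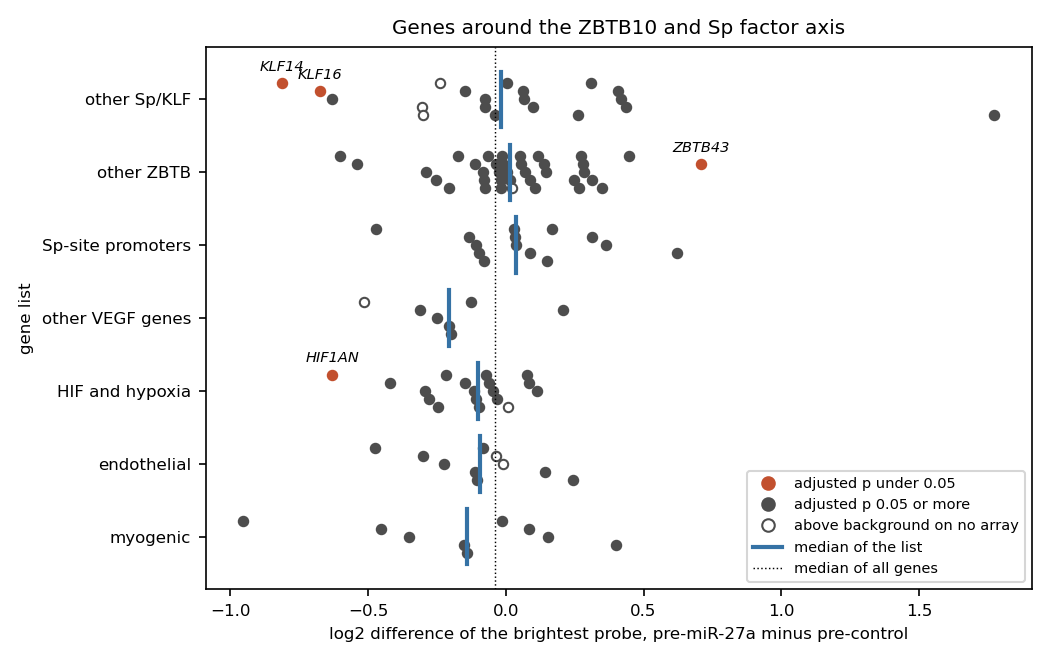
Log2 difference of the brightest probe (horizontal axis) for the genes of 7 lists around the axis, with 1 point per gene, a blue bar for the median of each list and a dotted line for the median of all genes. The called genes are KLF14, KLF16, ZBTB43 and HIF1AN, and the medians lie between −0.21 and 0.035.

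The genes whose signal followed the brightest ZBTB10 probe most closely over the 6 arrays were FBXO11, EIF3C and CDC27, with Pearson correlations of 0.996, 0.979 and 0.975. They were taken from 12781 genes with signals well above background on all arrays, of which 56 had a correlation above 0.9. The 6 points share slides and normalization, and these values are given only as a description.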

How the data were processed

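Total RNA of RH36 cells was labelled with Cy3 and hybridised to 6 one-colour whole human genome arrays of 60-base probes. Per array, the authors deposited spot by spot the processed intensity of Feature Extraction 10.5.1.1, corrected for a background fitted over the array, with the mean intensity, the local background and the quality flags. A second deposited table gives log2 values with array medians of 9.13 to 9.22. Set against the arrays, it held quantile-normalized log2 signals that were not centred, and differed from those computed here by a median of 0.0039 and at most 1.16 over 33169 probes. No column of per-sample values was unused (0 columns).

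Without control spots, the processed intensities were log2 transformed and quantile normalized. Spots whose found flag was 0 were set to missing, replicate spots were averaged, and a probe was kept with at most 1 of its arrays missing. R 4.3.3 was used, with version 1.17.8 of data.table to read the files, and limma 3.58.1 compared the groups over all 36469 probes at a Benjamini-Hochberg adjusted p under 0.05, which called 1440 probes higher and 1416 lower (1275 and 1981 with 75th percentile scaling). The script was tested on simulated data. The number of arrays, 3 per group, limits the precision, and signals not well above background give no level. No spot was saturated (0 spots).

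Whether the replicate numbers pair the arrays was checked by correlating the deviations of arrays from their group means over 31717 probes. Same-numbered arrays gave 0.40, 0.46 and 0.41, the highest for each array, so the numbers, which come from the labels, pair the arrays. Different numbers gave −0.27 to −0.12. Deviations from a group mean cancel out within the group, so these negative values follow from the positive ones and add no separate evidence. The reported counts, intervals, adjusted p and permutation tests nevertheless come from the comparison without the block and do not use the pairing. The reported intervals thus also hold the spread between replicate numbers. With the block the limma SE was 0.071 for ZBTB10 A_23_P385114, 0.072 for SP1 A_23_P366312, 0.079 for VEGFA A_24_P12401 and 0.059 for FLT1 A_24_P42755. Their blocked adjusted p were 0.674, 0.478, 0.184 and 0.0992, so none was called. Other blocked values stand beside results whose call they changed.

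The members and gene lists were chosen with earlier results of these data known. Every probe of the 7 genes was described. The lists name up to 4 called genes in each direction, BIRC5 in any case, and the 3 genes most correlated with the brightest ZBTB10 probe. A gene that counts in the lists is not reported by name here. Gene names are those of the files, brought to current symbols through RefSeq for 25260 of the probes, and probes are placed by the hg18 coordinates the files give. SP6, SP9, ZBTB42 and ZBTB8B had no probe under these symbols, and SP7, ZBTB7C and MYF5 no probe that passed the filter. The promoter table gave windows for SP1, SP3, SP4, FLT1 and KDR. Alternatives were 75th percentile scaling, normexp (offset 50), other filters and flags, outlier spots left out, the replicate block, the deposited log2 values, a variance trend with robust estimation, and each array left out.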

Additional observations from a re-analysis of the deposited data

How the results depend on the processing

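The number of called member probes, 1 in the reported fit and in the higher direction, was 2 with normexp and 2 with the replicate block, and 0 to 0 when an array was left out. No member probe was called lower under any alternative (0). The genes called in the lists, 4 in the reported fit, numbered 8 with normexp, 16 with the replicate block and 0 to 2 with an array left out. Over all genes, 6.64% were called in the reported fit and 13.5% with the block. Over all probes, 2856 were called in the reported fit, 3539 with normexp, 5421 with the block and 0 to 1276 with an array left out. ZBTB10 A_24_P64071 was called under 9 of 9 settings that kept all arrays (0.74 to 1.08) and under 0 of 6 that left an array out (0.94 to 1.22). ZBTB10 A_23_P385114 changed sign with normexp (−0.030) and without pre-miR-27a replicate 2 (−0.0020), and its leave-one-out range was −0.0020 to 0.13. SP1 A_23_P366312 was −0.021 without pre-miR-27a replicate 2 (range −0.021 to 0.19), and VEGFA A_23_P81805 was −0.0031 without pre-miR-27a replicate 1 (range −0.0031 to 0.20). None of these sign changes involved a call. SP3 A_23_P347198 passed with the replicate block (0.29, adjusted p = 0.0487) and SP4 with normexp (0.40, adjusted p = 0.0485), and the replicate block changed the call of no other member probe. The causes of these changes were not tested. Every other value of a tested member probe kept its sign and its side of the threshold under the alternatives that could be run, but several sizes moved. With an array left out, FLT1 A_24_P42755 spanned 0.051 to 0.34, SP1 A_23_P53397 −0.22 to −0.027 (−0.0040 with normexp), VEGFA A_24_P12401 0.11 to 0.33 and VEGFA A_23_P70398 0.12 to 0.36. FLT1 A_24_P246125 went from 0.96 to 0.11 with normexp and KDR A_23_P58419 from −0.048 to −0.87 with 75th percentile scaling, both above background on no array. The probes of FLT1 and KDR that were above background on no array could not be read under the filters that remove dim probes. Signal over background limits SP4, KDR and these FLT1 readings.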
